A study of Mus musculus with 3 samples.

Results

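10 genes that the tumour suppressor p53 is known to switch on were followed through the epithelium and the macrophages of embryonic mouse lung. They were Cdkn1a, Mdm2, Ccng1, Bax, Phlda3, Trp53inp1, Zmat3, Perp, Aen and Plk2, chosen by name from the 30406 genes that the 3 libraries measured under a shared Ensembl identifier, and each was found under 1 identifier in every library. The assay was droplet-based single-cell 3′ RNA sequencing, which counts unique molecules (UMIs) per gene and cell. The cells came from lungs of C57/B6 embryos at E14.5, pooled over the litters of 2 females, dissociated with warm enzymes, stained for the epithelial surface protein Epcam and the adhesion molecule Icam1, and sorted. Cells positive for both proteins (Epcam+ Icam+) were sequenced in 2 libraries and cells sorted as Epcam+ in 1 library, so that the sort compares epithelium picked for surface Icam1 with epithelium taken without that gate. The labels name no mutation and no treatment. Nothing in the labels says whether the libraries came from separate pools, so the tests below measure only the spread between libraries, which may be technical.

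p53 is a transcription factor that is held at a low level by Mdm2, which marks it for destruction, and by the related protein Mdm4. DNA damage, replication stress and other insults stabilise it, and it then switches on genes that arrest the cell cycle (Cdkn1a, which encodes the kinase inhibitor p21), promote cell death (Bax, Perp, Aen, Phlda3, Trp53inp1) and dampen its own activity (Mdm2, Ccng1). Zmat3 encodes an RNA-binding protein and Plk2 a kinase of the cell cycle. Several of these genes are also controlled without p53: Cdkn1a responds to differentiation and growth-factor signals in many tissues, and Perp is a junction protein that epithelia need independently of cell death.

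p53 binds DNA through a pair of half-sites of 10 bases each, separated by a short spacer. The 250 bases before the start site are shown for 5 members. These windows range from the best match to that pair among the members to 1 of the poorest, and the same genes differ between cell classes in the results below. The Plk2 window, whose best pair had 5 mismatches as in Phlda3, is not shown. The sequences are from RefSeq (GRCm38.p6) and read 5′ to 3′ towards the gene. Capitals mark the best pair of half-sites within the window, with the spacer in lower case. Best means the fewest mismatches among pairs that keep the central C and G of both half-sites, whatever the spacer up to 13 bases.
Cdkn1a: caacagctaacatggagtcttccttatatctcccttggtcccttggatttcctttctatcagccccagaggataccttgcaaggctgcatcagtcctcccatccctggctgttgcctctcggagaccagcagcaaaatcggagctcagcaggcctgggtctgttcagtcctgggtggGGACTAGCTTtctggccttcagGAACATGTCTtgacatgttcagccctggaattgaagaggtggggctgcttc
Mdm2: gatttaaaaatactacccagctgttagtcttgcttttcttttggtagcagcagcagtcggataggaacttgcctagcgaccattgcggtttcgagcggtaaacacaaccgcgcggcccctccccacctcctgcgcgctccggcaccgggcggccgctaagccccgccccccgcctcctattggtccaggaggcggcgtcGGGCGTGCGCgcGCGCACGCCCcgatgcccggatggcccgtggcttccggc
Ccng1: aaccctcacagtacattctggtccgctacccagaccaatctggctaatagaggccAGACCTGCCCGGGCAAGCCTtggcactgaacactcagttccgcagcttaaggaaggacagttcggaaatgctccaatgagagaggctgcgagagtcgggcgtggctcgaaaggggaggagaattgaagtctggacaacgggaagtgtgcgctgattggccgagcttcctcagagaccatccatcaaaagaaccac
Bax: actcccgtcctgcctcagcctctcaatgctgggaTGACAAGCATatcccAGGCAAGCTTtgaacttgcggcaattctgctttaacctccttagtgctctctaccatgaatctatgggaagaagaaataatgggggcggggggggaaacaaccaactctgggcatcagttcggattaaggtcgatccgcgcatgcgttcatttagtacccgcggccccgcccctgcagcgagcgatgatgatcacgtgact
Phlda3: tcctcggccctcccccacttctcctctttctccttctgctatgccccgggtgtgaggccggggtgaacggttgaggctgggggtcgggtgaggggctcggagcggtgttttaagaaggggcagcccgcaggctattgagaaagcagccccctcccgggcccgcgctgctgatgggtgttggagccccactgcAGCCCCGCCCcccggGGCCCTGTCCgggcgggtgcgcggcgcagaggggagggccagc
These windows lie at chr17:29090729-29090978 on the plus strand (Cdkn1a), chr10:117710759-117711008 on the minus strand (Mdm2), chr11:40755287-40755536 on the minus strand (Ccng1), chr7:45466899-45467148 on the minus strand (Bax) and chr1:135765835-135766084 on the plus strand (Phlda3). In the Cdkn1a window both half-sites matched the p53 half-site consensus without a mismatch, with a spacer of 12 bases, from base -73 to base -42 before the start. The half-site that begins at base -51 is also followed, with no spacer, by tgacatgttc, which has 1 mismatch. A second Cdkn1a window, at chr17:29093519-29093768 on the plus strand, is not shown. Its best pair had 5 mismatches and a spacer of 9 bases, and it held no half-site without a mismatch. The Ccng1 pair had 1 mismatch and no spacer, the Bax pair 2 mismatches and a spacer of 5 bases, the Mdm2 pair 4 mismatches and the Phlda3 pair 5. Mdm2 also held a single half-site without a mismatch that began at base -186. A half-site without a mismatch, searched on both strands over 300 bases around the start, stood in 6 of the members' 9 promoters and in 8.36% of all 32851 promoters in the table, and a pair with at most 3 mismatches and a spacer of at most 13 bases in 5 of 9 and in 15.6% of all. The members' promoters covered 7 genes, and Trp53inp1, Zmat3 and Perp had none. The 2 Aen windows overlap and share their site. By gene, 5 of the 7 held such a half-site and 4 such a pair, against 2582 and 4701 of all 27025 genes. Of 37 promoters of other known p53 targets, 16.2% held the half-site and 29.7% the pair. A match of letters describes the window and is no evidence of binding in these cells. Bases outside the 300 around each start were not searched, so a poor match there does not show that a gene lacks a p53 site.

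All members are protein-coding (GENCODE vM21 on mm10). Cdkn1a spans bases 29090976 to 29100727 of chromosome 17, Mdm2 117688875 to 117710758 of chromosome 10, Phlda3 135766119 to 135769136 of chromosome 1 and Plk2 110395046 to 110400844 of chromosome 13. Bax, at 45461697 to 45466898 of chromosome 7, shares 192 exonic bases on the same strand with the gene model Gm45808, which only some of the libraries' gene tables list, so its counts may be split differently between the sorts.

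The libraries held 4739 and 4531 barcodes in the Epcam+ Icam+ sort and 3697 in the Epcam+ sort, with 74170599, 67843828 and 84460347 UMIs. Pairs of libraries shared 0 to 3 barcodes. After filtering, 3062, 2873 and 2797 cells remained, and members were left out of the genes that set the clusters. Epithelial cells numbered 2542, 2332 and 2562 in the same order. Among them, airway-like cells (363, 386 and 180) led with airway markers, tip-like cells (607, 369 and 712) with markers of the growing distal tips, and alveolar type 1-like cells (305 and 383, with none named in the Epcam+ library) with markers of the thin gas-exchange cell. A cluster led by Sprr1a was set apart in the Epcam+ Icam+ libraries (226 and 205 cells), 91 ciliated-like cells with a median of 2765 UMIs were found in the first of them, and 950, 989 and 1670 epithelial cells stayed unnamed. The name of the ciliated-like cells is uncertain. Their tip marker Sox9 stood at 83.6 and their airway marker Sox2 at 29.7 counts per 1000000 UMIs, against 69.9 and 0.44 in tip-like cells of that library. Of the 40 ciliated-like cells with a cell cycle call, 67.5% were in G2/M. Macrophage-like cells, which carry the complement gene C1qb and reach these sorts beside the epithelium, numbered 282, 319 and 44. The 44 of the Epcam+ library stand apart: their basophil and mast cell markers summed to 3862 counts per 1000000 UMIs (CPM), against 3.72 and 1.45 CPM in the macrophage-like cells of the Epcam+ Icam+ libraries, and their macrophage markers to 25016 CPM against 35560 and 36074 CPM. Epcam stood at 42.5 CPM in them, against 18.9 and 14.1 CPM in the other 2, and at 958 to 1036 CPM in epithelium. The contrast of macrophage-like with epithelial cells is therefore also given without the Epcam+ library.

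The widest contrast among the members lay between macrophage-like and epithelial cells of the same library. Cdkn1a stood at 252 and 256 CPM in macrophage-like cells of the Epcam+ Icam+ libraries and at 219 CPM in those of the Epcam+ library, against 33.1, 31.8 and 13.9 CPM in the epithelium of the same libraries. Every macrophage value lay above every epithelial value. Mdm2 stood at 100.02, 100.57 and 81.0 CPM in macrophage-like cells, against 40.1, 36.8 and 40.3 CPM in epithelium. Again the groups did not overlap. Ccng1, which encodes cyclin G1 and recruits a phosphatase to Mdm2, stood at 16.9, 18.4 and 21.3 CPM in macrophage-like cells, against 7.68, 7.61 and 8.63 CPM in epithelium, and Bax, the pore former of the outer mitochondrial membrane, at 214, 213 and 206 CPM against 137, 139 and 167 CPM. Both genes were higher in macrophage-like cells in each of the 3 libraries, with no overlap of the groups. The share of all genes without such overlap was not counted, and 63.6% of all 13537 genes passed the test between these cells. Lack of overlap is therefore not read as a trait of these members.

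In the fit over all genes (edgeR's quasi-likelihood test on UMIs summed per library and class, with library as a block and Benjamini-Hochberg adjustment at 0.05), 5 of the 10 members rose in macrophage-like cells and 3 fell, against 63.6% of all 13537 genes tested that passed in either direction, as 29% rose and 34.6% fell. The share called among the members is thus not far from that among all genes, and their median log2 fold change of 0.61 stands beside a median of -0.12 over all genes. Cdkn1a rose by a log2 of 3.57 (SE 0.19, adjusted p 2.55e-06 in edgeR's quasi-likelihood test). Mdm2 rose by 1.57 (SE 0.16) and Ccng1 by 1.54 (SE 0.16) on the log2 scale, with adjusted p-values of 9.26e-05 and 8.61e-05 in the same edgeR fit. Bax rose by 0.81 (SE 0.15, adjusted p 0.00189 in edgeR). Without the Epcam+ library and its 44 cells, the same 5 members rose and the same 3 fell, against 77.0% of all 13956 genes tested, with log2 fold changes of 3.33 for Cdkn1a, 1.75 for Mdm2, 1.58 for Ccng1, 1.00 for Bax, -2.93 for Phlda3 and -1.43 for Zmat3. That fit has 1 residual degree of freedom.

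The members that fell in macrophage-like cells were Perp, Phlda3 and Zmat3. Phlda3, whose protein restrains the survival kinase Akt at the membrane, stood at 1.18, 1.74 and 5.06 CPM in macrophage-like cells (7, 12 and 5 UMIs), against 14.4, 14.7 and 31.96 CPM in epithelium, which gave -2.85 on the log2 scale (SE 0.24, adjusted p 2.7e-05 in edgeR). Perp stood at 0.68 and 0.29 CPM in macrophage-like cells of the Epcam+ Icam+ libraries (4 and 2 UMIs) and at 12.1 CPM in those of the Epcam+ library (12 UMIs), against 20.5, 20.6 and 20.4 CPM in epithelium. In Perp, the 44 macrophage-like cells of the Epcam+ library lay closest to their epithelium. Perp fell by 3.47 on the log2 scale (SE 0.67, adjusted p 0.0027 in edgeR) over the 3 libraries, by 5.08 without the Epcam+ library, and by 2.70 and 2.43 without the first and the second Epcam+ Icam+ library, and it passed each time. In the 10 and 18 basophil and mast-like cells of the Epcam+ Icam+ libraries Perp stood at 136 and 79.1 CPM, from 17 and 18 UMIs. The part of such cells in the Perp value of the Epcam+ macrophage-like cells was not tested. Zmat3 fell by 1.30 (SE 0.30, adjusted p 0.00603 in edgeR), with 3.04, 1.74 and 4.05 CPM in macrophage-like cells against 8.91, 7.45 and 5.77 CPM in epithelium. Zmat3 no longer passed without the first (-1.25) or the second (-0.95) Epcam+ Icam+ library.

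Plk2, a kinase that acts on centriole duplication and in stress responses, lay on different sides of the epithelium in the 2 sorts. It stood at 223 and 183 CPM in macrophage-like cells of the Epcam+ Icam+ libraries but at 40.5 CPM (40 UMIs) in those of the Epcam+ library, against 68.1, 66.3 and 54.7 CPM in epithelium. Its log2 fold change was 1.37 (SE 0.40, adjusted p 0.0176 in edgeR) over all 3 libraries, 1.95 without the Epcam+ library and 0.89 without the first Epcam+ Icam+ library, and it passed each time. Aen, a nuclease of apoptotic cells, and Trp53inp1, a nuclear protein that also takes part in autophagy, did not pass the test, with log2 fold changes of -0.45 and 0.40. Trp53 itself stood at 90.7, 84.8 and 166 CPM in macrophage-like cells and at 95.3, 97.6 and 215 CPM in epithelium, lower in macrophage-like cells in each library on this scale. After TMM scaling its log2 fold change was 0.08 (SE 0.14) and did not pass the test, so that the scaling turned its sign. Without the Epcam+ library it was 0.23 and passed (adjusted p 0.00125 in edgeR). Mdm4 had a log2 fold change of 0.03 (SE 0.14), or 0.05 without the Epcam+ library, and did not pass in either fit.

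**Figure D1:**
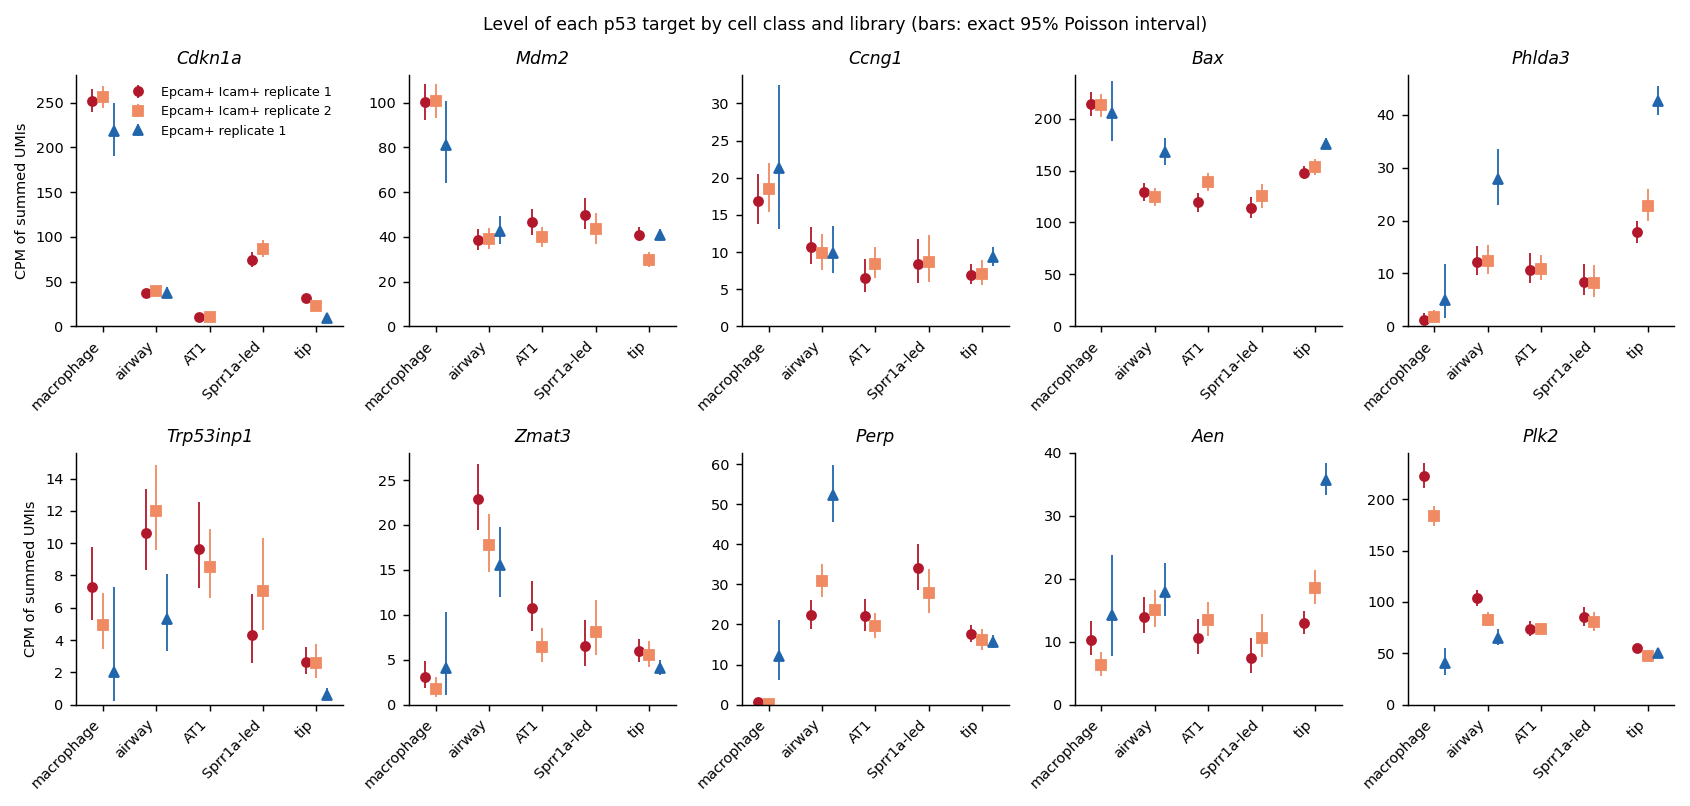
Level of each member in CPM (vertical axis, from 0) by cell class (horizontal axis) and library (colour and marker), with exact 95% Poisson intervals that cover counting error only. Cdkn1a, Mdm2, Ccng1 and Bax stand higher in macrophage-like cells than in any of the epithelial classes in every library. Among the epithelial classes drawn, Phlda3 stands highest in tip-like cells, and Trp53inp1 and Zmat3 in airway-like cells.

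Monocyte-like cells, found only in the Epcam+ Icam+ libraries (171 and 123 cells), had Cdkn1a at 270 and 324 CPM and Mdm2 at 74.7 and 56.5 CPM. Their Cdkn1a level lay above that of the macrophage-like cells in both libraries, beyond the counting intervals in replicate 2 but not in replicate 1. The class differed between the libraries: the mast cell gene Cpa3 stood at 116 CPM in replicate 1 and had no UMI in replicate 2, and the macrophage gene C1qb at 1614 and 956 CPM, against 3065 and 3102 CPM in macrophage-like cells. The part of such transcripts in these values was not tested. Plk2 was low there, at 45.8 and 26.2 CPM. High Cdkn1a and high Plk2 thus did not go together in the 2 myeloid classes.

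Of 32 further p53 targets, 31 were tested between macrophage-like and epithelial cells, and 8 of them rose and 11 fell; their median on the log2 scale was -0.20. Of all genes, 29% rose and 34.6% fell, so neither share stands far from that of all genes. Among those that rose were the secreted stress cytokine Gdf15 (log2 fold change 4.88), the death receptor Fas (4.88), the BH3-only gene Pmaip1 (3.81), the stress gene Sesn1 (2.66) and Apaf1 (2.02), the scaffold of the apoptosome. Gadd45a fell by 1.57 on the log2 scale, and by 2.62 without the Epcam+ library. Of 13 genes for p53 and its regulators, 12 were tested, and 3 rose and 4 fell. The replication checkpoint kinase gene Chek1 fell by 1.39, and the ubiquitin ligase gene Rchy1 rose by 1.01 on the same scale. Without the Epcam+ library, 11 of the 31 further targets rose and 12 fell, and 5 of the 12 regulators rose and 5 fell. In that fit 77.0% of all 13956 genes passed, 5092 higher and 5654 lower, so these counts do not set the lists apart.

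A cell-by-cell view was taken after thinning every cell to 3000 UMIs, so that depth did not set the shares. A Cdkn1a UMI was found in 43.6% and 48.0% of macrophage-like cells of the Epcam+ Icam+ libraries and in 38.1% of those of the Epcam+ library, against 8.07%, 7.54% and 4.62% of epithelial cells. Without thinning the shares were 84.4%, 85.6% and 77.3% of macrophage-like cells and 29.5%, 27.5% and 23.6% of epithelial cells, at median depths of 20360.5, 21709 and 22107.5 UMIs and of 18576.5, 18890 and 27448.5 UMIs. The lowest share of any class, 1.33% and 2.87%, was that of the alveolar type 1-like cells. Free RNA was not measured, and its part in shares of that size was not tested. For scale, the macrophage gene C1qb stood at 2.18 and 1.84 CPM in those alveolar type 1-like cells. In macrophage-like cells of the same libraries it stood at 3065 and 3102 CPM. Mdm2 was found in 23.1%, 23.5% and 19.0% of macrophage-like cells, against 11.1%, 9.99% and 11.2% of epithelial cells. Across the 10 members, a thinned macrophage-like cell showed a mean of 1.68, 1.58 and 1.26 members, against 0.88, 0.89 and 0.95 in an epithelial cell.

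**Figure D2:**
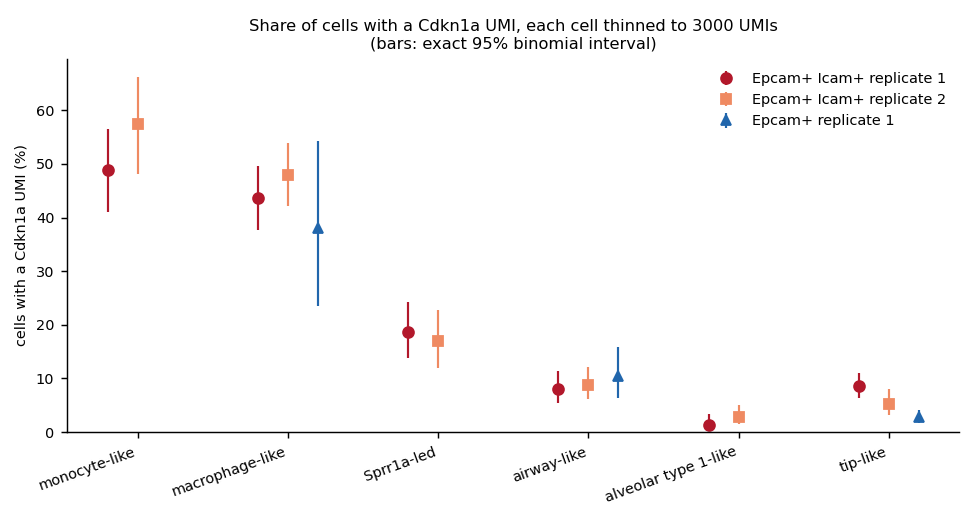
Share of cells with at least 1 Cdkn1a UMI (vertical axis, percent) by cell class (horizontal axis) and library (colour and marker), after thinning each cell to 3000 UMIs, with exact 95% binomial intervals. Shares lie between 38.1% and 57.4% in the monocyte-like and macrophage-like cells, at 18.6% and 16.9% in the Sprr1a-led cells and at or below 10.4% in the other epithelial classes.

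Within the epithelium, airway-like cells differed from tip-like cells of the same library in 7 members, of which 5 rose and 2 fell, against 40.4% of all 11841 genes tested (18.6% higher and 21.8% lower). The median log2 fold change was 0.48 for the members and -0.01 for all genes. Trp53inp1 stood at 10.7 and 12.0 CPM in airway-like cells of the Epcam+ Icam+ libraries and at 5.33 CPM in those of the Epcam+ library, against 2.65, 2.55 and 0.62 CPM in tip-like cells. Zmat3 stood at 22.9, 17.8 and 15.5 CPM in airway-like cells, against 5.93, 5.50 and 4.06 CPM in tip-like cells. For both genes all airway values lay above all tip values, a lack of overlap that was not counted over all genes. The log2 fold changes were 2.24 (SE 0.23) and 1.79 (SE 0.14), with adjusted p-values of 0.000125 and 2.91e-05 in edgeR's quasi-likelihood test. Perp, which desmosomes of stratified epithelia need, rose by 0.94 (SE 0.20, adjusted p 0.00619 in edgeR), with 22.3, 30.8 and 52.4 CPM in airway-like cells against 17.7, 16.1 and 15.7 CPM in tip-like cells. The rise of Perp was widest in the Epcam+ library.

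Cdkn1a stood at 37.3, 39.3 and 37.3 CPM in airway-like cells, against 31.2, 23.3 and 9.79 CPM in tip-like cells, and rose by 0.84 on the log2 scale (SE 0.24, adjusted p 0.0195 in edgeR). The airway level was nearly the same in the 3 libraries, whereas the tip level varied. Without the second Epcam+ Icam+ library, 3 members passed in place of 7, and the 4 lost were Cdkn1a (0.98, adjusted p 0.127 in edgeR), Perp (1.00), Plk2 (0.60) and Bax (-0.19). Without the first, Bax alone was lost (-0.26), and without the Epcam+ library Cdkn1a (0.44) and Perp (0.58) passed at a smaller size. Calls over all genes ranged from 1945 to 5806 with a library left out, against 4782 in the full fit. The changed count of members is thus no result about the members alone. Plk2 rose by 0.63 (SE 0.12), with 104, 82.8 and 65.2 CPM in airway-like cells against 55.7, 47.0 and 50.1 CPM in tip-like cells. The airway-like class of the second Epcam+ Icam+ library held a cluster of 95 cells with Cdkn1a at 83.4, Perp at 78.9 and Phlda3 at 33.8 CPM, and 1 of 291 cells with 32.8, 23.7 and 9.28 CPM. Among 9 larger epithelial clusters of that library, the cluster of 95 cells was highest in Perp, Phlda3, Ccng1 (13.5 CPM) and Trp53inp1 (12.4 CPM). Cdkn1a, Mdm2, Bax, Zmat3, Aen and Plk2 were each highest in another cluster. In the airway-like class as a whole Phlda3 was lower, at 12.2, 12.4 and 27.9 CPM in airway-like cells against 17.8, 22.8 and 42.6 CPM in tip-like cells, and fell by 0.75 on the log2 scale (SE 0.11). Bax fell by 0.27 (SE 0.07). Mdm2, with 38.7, 39.0 and 42.7 CPM in airway-like cells and 41.0, 29.6 and 40.9 CPM in tip-like cells, Ccng1 and Aen did not pass the test.

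Alveolar type 1-like cells could be set against tip-like cells in the 2 Epcam+ Icam+ libraries only, with 1 residual degree of freedom. 4 members rose and 4 fell, against 45.8% of all 11858 genes tested (21.6% higher and 24.2% lower). Cdkn1a was lower here than in any other named epithelial class of these libraries, at 10.5 and 10.9 CPM in alveolar type 1-like cells against 31.2 and 23.3 CPM in tip-like cells, and fell by 1.36 on the log2 scale (SE 0.13, adjusted p 1.05e-21 in edgeR). Trp53inp1 rose by 1.76 (SE 0.24), as 9.62 and 8.53 CPM in alveolar type 1-like cells against 2.65 and 2.55 CPM in tip-like cells. Cdkn1a and Trp53inp1 thus moved in opposite directions between the same cells. Phlda3 fell by 0.95 (SE 0.14), Aen by 0.44 (SE 0.15) and Bax by 0.26 (SE 0.06), whereas Zmat3 rose by 0.54 (SE 0.20), Plk2 by 0.49 (SE 0.08) and Mdm2 by 0.25 (SE 0.09). Perp and Ccng1 did not pass the test. Without the first Epcam+ Icam+ library, and hence with no test, Zmat3 had a log2 fold change of 0.19 and Mdm2 of 0.39, and without the second Mdm2 had 0.13.

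Phase calls differed between the classes. G1 calls made up 58.6%, 60.3% and 33.5% of airway-like cells and 76.1% and 80.7% of alveolar type 1-like cells, against 8.01%, 16.4% and 3.57% of tip-like cells. The proliferation gene Mki67, which is 1 of the genes behind the calls, stood at 98.8, 100.38 and 57.0 CPM in airway-like cells and at 55.7 and 36.7 CPM in alveolar type 1-like cells, against 233, 186 and 61.1 CPM in tip-like cells. In the Epcam+ library its airway and tip levels were thus close. Among cells called G1 only, 4 members passed between airway-like and tip-like cells: Zmat3 (log2 fold change 1.60), Perp (0.91), Plk2 (0.72) and Phlda3 (-1.15). Cdkn1a (0.41, adjusted p 0.226 in edgeR) and Bax did not, and Trp53inp1 fell under the expression filter. Between alveolar type 1-like and tip-like cells in G1, Cdkn1a (-1.33) and Phlda3 (-1.16) passed. The tip-like cells in G1 of the 3 libraries held only 22, 28 and 8 Cdkn1a UMIs, which limits these values. The share of all genes that passed among G1 cells is not given here. The number of members called there is thus no result about the members.

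**Figure D3:**
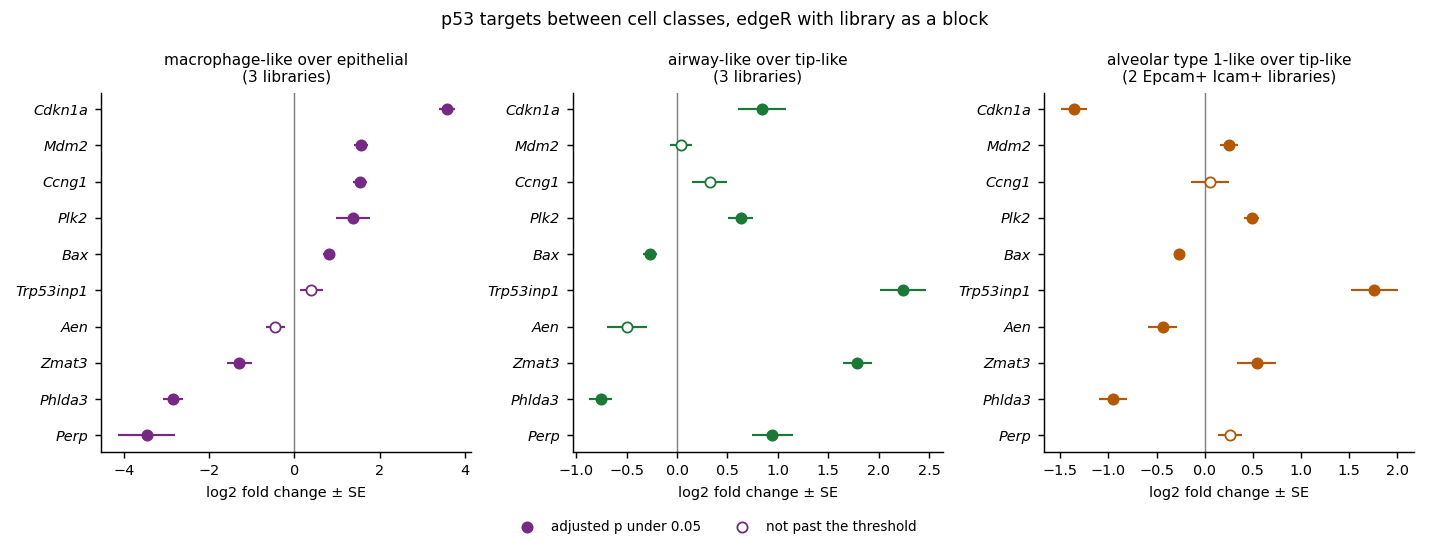
Log2 fold change (horizontal axis) with its standard error for each member (rows) in 3 comparisons within libraries, with filled points for members past an adjusted p of 0.05 and open points for the others. Cdkn1a lies at 3.57 for macrophage-like over epithelial, 0.84 for airway-like over tip-like and -1.36 for alveolar type 1-like over tip-like cells, while Phlda3 lies below 0 in all 3.

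The Sprr1a-led cells of the Epcam+ Icam+ libraries were also led by Sprr2k, F3, Hbegf, Areg, Myc and Cldn4, and had the highest Cdkn1a level of any epithelial class. It stood at 74.3 and 86.3 CPM there, against 37.3 and 39.3 CPM in airway-like cells and 31.2 and 23.3 CPM in tip-like cells of the same libraries, beyond the counting intervals each time. In the second of these libraries, the smaller airway-like cluster described above stood just below the Sprr1a-led level. A Cdkn1a UMI was found in 18.6% and 16.9% of the Sprr1a-led cells after thinning, against 8.05% and 8.77% of airway-like cells. The other members did not stand apart to this degree: Mdm2 stood at 49.9 and 43.4 CPM, Plk2 at 85.7 and 80.6 CPM, Bax at 114 and 125 CPM and Phlda3 at 8.45 and 8.14 CPM, the last being the lowest level of the named epithelial classes. This class was set apart after its genes had been seen, and its values are given without a test. The ciliated-like cells of replicate 1, whose name is uncertain, had Cdkn1a at 45.9 CPM, from 34 UMIs. Without them, the order of Cdkn1a in the Epcam+ Icam+ libraries, from the top, was monocyte-like, macrophage-like, Sprr1a-led, airway-like, tip-like and alveolar type 1-like, and the neighbours whose counting intervals overlapped were monocyte-like with macrophage-like and airway-like with tip-like cells, both in replicate 1 only.

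Cell cycle phases were assigned within the epithelium from lists that hold none of the members. In the fit over all 3 phases, 4 members rose and 4 fell in S against G1, beside 36.4% of all 12986 genes tested (21.4% higher and 14.9% lower). In G2/M against G1, 4 rose and 4 fell as well, beside 43.2% of all genes (25.1% higher and 18.1% lower). Trp53inp1 was higher in G1, at 8.70, 3.75 and 4.78 CPM in G1, S and G2/M of the first Epcam+ Icam+ library, 9.41, 3.41 and 4.35 CPM in the second, and 4.46, 1.18 and 1.07 CPM in the Epcam+ library. Its log2 fold change was -1.38 (SE 0.20) in S and -1.16 (SE 0.16) in G2/M, with adjusted p-values of 0.000193 and 0.000115 in edgeR. Plk2, Perp and Zmat3 also fell in both: Plk2 by 0.24 in S and 0.55 in G2/M, Perp by 0.48 and 0.47, and Zmat3 by 0.65 and 0.63 on the log2 scale. All of these were also higher in airway-like than in tip-like cells.

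Cdkn1a rose in S by 0.60 (SE 0.12, adjusted p 0.00152 in edgeR) and in G2/M by 0.35 (SE 0.11, adjusted p 0.0206 in edgeR). By library it stood at 24.2, 42.0 and 35.4 CPM in G1, S and G2/M of the first Epcam+ Icam+ library, 25.1, 38.3 and 34.9 CPM in the second, and 15.1, 15.8 and 12.5 CPM in the Epcam+ library. The rise was seen in both Epcam+ Icam+ libraries, whereas the intervals of the phases overlapped in the Epcam+ library. Without the first Epcam+ Icam+ library, Cdkn1a did not pass in S (0.43, adjusted p 0.0602 in edgeR) or in G2/M (0.20). In that G2/M comparison 5 members were called in place of 8. Without the second library Cdkn1a did not pass in G2/M (0.28). Calls over all genes in G2/M ranged from 3414 to 6345 with a library left out, against 5615 in the full fit. Without the Sprr1a-led cells Cdkn1a rose by 0.93 in S and 0.67 in G2/M. Phlda3 rose by 0.65 in S and 0.71 in G2/M, at 10.1, 15.6 and 16.9 CPM in the 3 phases of the first Epcam+ Icam+ library, 11.6, 16.8 and 16.3 CPM in the second, and 19.9, 32.2 and 34.5 CPM in the Epcam+ library. Aen rose by 0.37 and 0.36 and Bax by 0.23 and 0.15. Calls that were lost when 1 library was left out were, in S, Plk2 (-0.22 without the first), Aen (0.42 without the second, 0.18 without the Epcam+ library) and Bax (0.23 without the second), and, in G2/M, Zmat3 (-0.52 without the first) and Bax (0.17 and 0.18 without the first and the second). Bax was 0.087 in G2/M without the Epcam+ library. Mdm2 (-0.08 and -0.07) and Ccng1 (-0.37 and -0.12) did not pass the test in either phase. Trp53 rose by 0.34 in S and 0.27 in G2/M, while Chek1, which is known to peak in S phase, rose by 2.24 in S.

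Within the tip-like cells alone, none of the 10 members passed in either phase by edgeR's quasi-likelihood test, with 1 at an unadjusted p under 0.05 in each, against 741 of all 10844 genes tested in S and 896 in G2/M. There Phlda3 had log2 fold changes of -0.10 in S and -0.08 in G2/M, and Cdkn1a 0.57 and -0.11. The phases of all epithelial cells and the classes overlap, since G1 cells came mostly from classes other than the tip, and the part of class in the phase differences was not tested for each gene apart from this. Macrophage-like cells of the Epcam+ Icam+ libraries were mostly in G1 by these calls (67.0% and 66.1%), and their Cdkn1a level was 239, 280 and 267 CPM in G1, S and G2/M of replicate 1 and 247, 278 and 266 CPM in replicate 2. The intervals of the phases overlapped in both libraries.

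**Figure D4:**
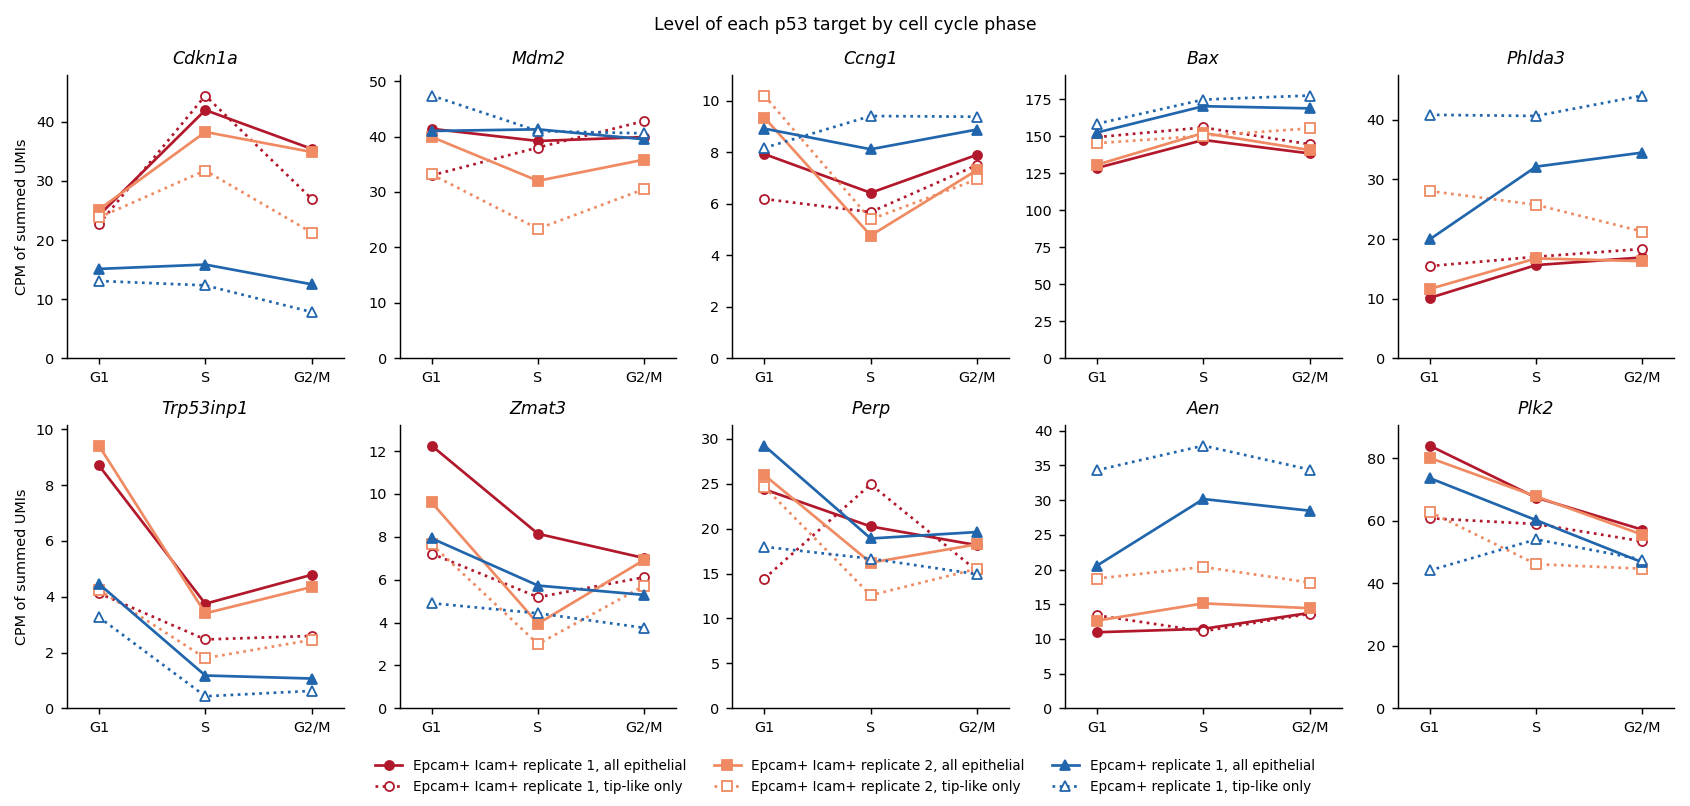
Level of each member in CPM (vertical axis, from 0) in G1, S and G2/M (horizontal axis) for all epithelial cells (solid lines) and tip-like cells only (dotted lines) of each library (colour and marker). Trp53inp1 lies highest in G1 in all 3 libraries, and Cdkn1a lies highest in S in both Epcam+ Icam+ libraries, at 42.0 and 38.3 CPM.

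Whether the other members move with Cdkn1a from cell to cell was asked by splitting epithelial cells, thinned to 3000 UMIs, into those with a Cdkn1a UMI (187, 157 and 111) and those without (2129, 1925 and 2290). None of the other 9 members passed edgeR's quasi-likelihood test, with 0 at an unadjusted p under 0.05, and DESeq2 called 0 as well, against 0.596% of all 10238 genes (0.459% higher and 0.137% lower). Log2 fold changes lay between -0.48 (Trp53inp1, SE 0.71) and 0.53 (Phlda3, SE 0.29). Mdm2 stood at 40.9 CPM in cells with and 39.3 CPM in cells without a Cdkn1a UMI, a log2 fold change of 0.03 (SE 0.21). Of 23 further targets and 12 regulators that were tested, none passed the edgeR test, with 1 and 0 at an unadjusted p under 0.05. The standard errors of 0.11 (Bax) to 0.71 (Trp53inp1) limit what could be detected at this depth, and so does the split itself. Without thinning, a larger share of epithelial cells had a Cdkn1a UMI, as given above. The cells counted as without it therefore include cells that carry it, which draws differences towards 0. The lack of calls thus does not settle whether the members move together. Thinned to 6000 UMIs, 1 of the 9 members passed (Perp). The share of all genes that passed at 6000 UMIs is not given here, so that count is no result about the members.

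Across 30 sums of class and phase, centred within each library, the genes whose pattern was most like that of Cdkn1a were Ifrd1 (Pearson r 0.95), Junb (0.94) and Lgals3 (0.92), and the genes most like Mdm2 were Ten1 (0.95), Aph1a (0.94) and Hebp1 (0.92). These are descriptions over sums that share libraries and, in part, cells. The sums include macrophage-like, monocyte-like and mesenchyme-like cells beside the epithelial classes and phases. The r values therefore also carry the differences between those cells and epithelium, and none was computed within the epithelium alone. Among the members, Mdm2 had an r of 0.69 with Cdkn1a and Phlda3 one of -0.85, and the remaining members lay between -0.55 (Aen) and 0.58 (Bax).

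Between the sorts, the epithelium of the Epcam+ Icam+ libraries differed from that of the Epcam+ library in 9 of 10 members, of which 4 rose and 5 fell, against 78.1% of all 14810 genes tested (39.3% higher and 38.8% lower). With most genes called, such a count says little about the members. The sort cannot be told apart from the software version and gene table that differed with it, and the comparison is of 2 libraries with 1. Trp53inp1 stood at 5.81 and 6.01 CPM in the Epcam+ Icam+ libraries, against 1.52 CPM in the Epcam+ library (log2 fold change 1.86, SE 0.13). Cdkn1a stood at 33.1 and 31.8 CPM against 13.9 CPM (1.12, SE 0.06), and at 0.91 on the same scale without the Sprr1a-led cells. Phlda3 stood at 14.4 and 14.7 CPM against 31.96 CPM (-1.23, SE 0.06) and Aen at 12.4 and 14.0 CPM against 28.2 CPM (-1.19, SE 0.07). Targets of the same factor thus moved in both directions. Zmat3 rose by 0.41 and Plk2 by 0.20, while Bax fell by 0.38, Ccng1 by 0.27 and Mdm2 by 0.16 on the log2 scale (-0.088 for Mdm2 without the second Epcam+ Icam+ library), and Perp (-0.08) did not pass the test. Trp53 fell by 1.25 and Mdm4 rose by 1.14. The share of epithelial cells called G1 was 38.3% and 42.7% in the Epcam+ Icam+ sort against 15.6% in the Epcam+ sort, and the part of cycling in these differences was not tested.

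In macrophage-like cells, 3 members rose and 1 fell between the same sorts, against 38.6% of all 11020 genes tested (21.2% higher and 17.4% lower). Plk2 rose by 2.40 (SE 0.17), Mdm2 by 0.39 (SE 0.16) and Cdkn1a by 0.29 (SE 0.11) on the log2 scale, and Perp fell by 4.54 (SE 0.81), or by 3.30 with no test when the second Epcam+ Icam+ library is left out. With other size factors (RLE) only Plk2 and Perp passed, and with DESeq2 only Plk2. Trp53 fell by 0.84 in macrophage-like cells too, and Mdm4 rose by 1.24. The basophil and mast cell markers given above moved with this comparison, and their part in it was not tested.

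The sort difference in epithelium was set against that in macrophage-like cells in 1 fit, which takes out what a library does to both cell types alike. 2 members had a higher and 3 a lower difference in epithelium, against 12.1% of all 14817 genes tested (2.83% higher and 9.26% lower), and the median over all genes was -0.34 on the log2 scale. Plk2 (-2.32, SE 0.20), Mdm2 (-0.67, SE 0.18) and Bax (-0.63, SE 0.13) lay below and Perp (4.40, SE 0.74) and Cdkn1a (0.71, SE 0.14) above 0, with adjusted p-values of 2.21e-28, 0.00301, 2.97e-05, 1.55e-07 and 1.76e-05 in edgeR. With RLE size factors, which move the median of all genes to -0.19, these 5 kept their sign, with Mdm2 at -0.52 and Bax at -0.47. Mdm2 and Bax did not pass with DESeq2, Mdm2, Bax and Cdkn1a not with at least 2000 UMIs per cell, and Perp and Cdkn1a not with joint clustering, whereas Plk2 passed in all 3. Phlda3 (0.34), Trp53inp1 (0.09), Zmat3 (0.99), Aen (-0.59) and Ccng1 (-0.20) did not pass the test. Trp53 had a difference of -0.53 (SE 0.14), on the side of the median of all genes.

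**Figure D5:**
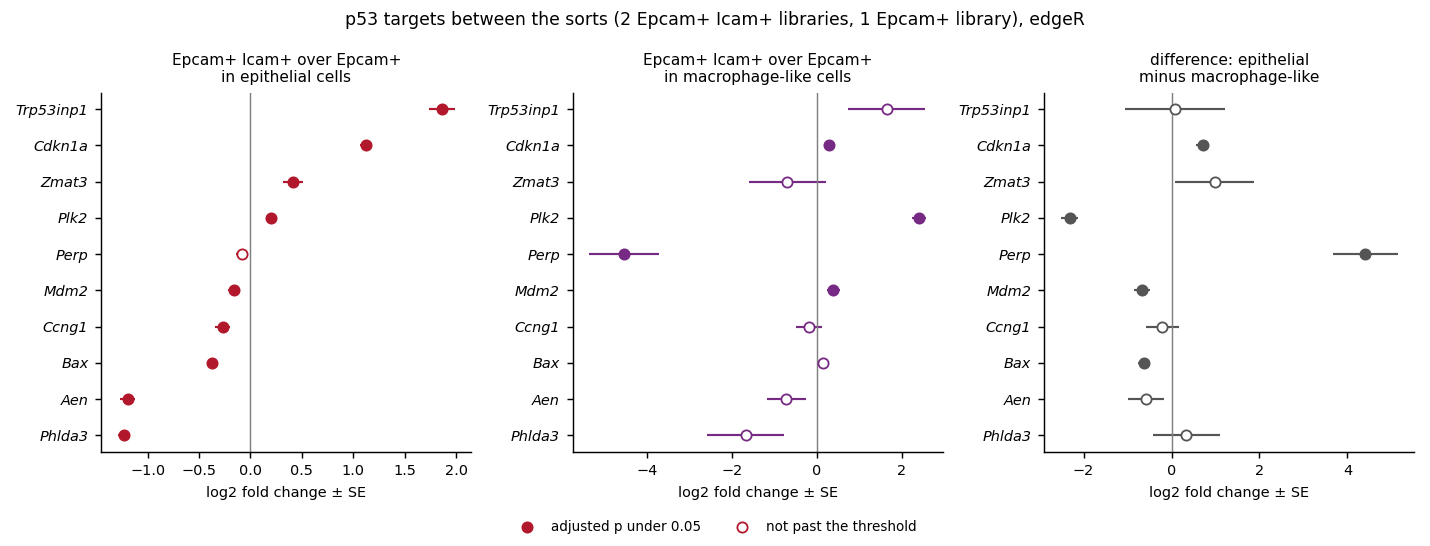
Log2 fold change (horizontal axis) with its standard error for each member (rows) between the sorts, in epithelial cells, in macrophage-like cells, and as the difference of both, with filled points for members past an adjusted p of 0.05 and open points for the others. Trp53inp1 (1.86) and Cdkn1a (1.12) lie highest in epithelial cells, and Plk2 (2.40) lies highest and Perp (-4.54) lowest in macrophage-like cells.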

How the data were processed

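The deposited files are UMI counts per gene and barcode for 3 libraries. Per the file headers, Cell Ranger 5.0.1 made the Epcam+ Icam+ files and 3.0.2 the Epcam+ file, whereas the submitters' processing notes name Cell Ranger 2.1.1 and mm10. The deposited gene tables hold 32285 and 31053 genes, and no barcode has fewer than 500 UMIs. The members and gene lists were chosen with earlier results of these data known.

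Barcodes with at least 1000 UMIs, 500 genes and at most 10% mitochondrial UMIs were kept. Doublet scores left out 92, 80 and 72 barcodes at 0.8% per 1000, since the automatic threshold of scrublet found 0 or 1. The 301, 264 and 121 barcodes with both macrophage and epithelial transcripts, some of them among those doublets, were left out, a step chosen after seeing the data, like the Sprr1a-led class. Each library was clustered alone with scanpy 1.11.5 (Python 3.11.15, Leiden resolution 1), without the members, the gene lists and cycle genes, and clusters were named from at least 3 raised markers. Free RNA was not removed.

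Counts summed per library and class were compared with edgeR 4.0.16 in R 4.3.3 (quasi-likelihood F test, TMM, filterByExpr, Benjamini-Hochberg at 0.05). The library is the block within libraries, since both arms of each pair come from the same library. Classes needed 20 cells. Alternatives were DESeq2 1.42.0, RLE size factors, no filter, no block, other cell filters, resolutions and joint clustering, each library left out, and restriction to G1 or tip-like cells. Intervals are exact at 95% and cover counting error only. Named genes were all members, Trp53, Mdm4 and up to 6 of each list per comparison that passed and averaged 10 CPM or more, by absolute log2 fold change. A second call rule with a minimum absolute log2 fold change of 0.5 was planned and is not used.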

Additional observations from a re-analysis of the deposited data

Results flagged for a closer look

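The sort difference (Epcam+ Icam+ over Epcam+) differed between epithelial and macrophage-like cells for 5 members, by a test of the difference itself in edgeR. On the log2 scale, epithelial minus macrophage-like, the values were -2.32 for Plk2, 4.40 for Perp, 0.71 for Cdkn1a, -0.63 for Bax and -0.67 for Mdm2. Of these 5, only Plk2 passed under each of 3 alternatives, DESeq2, at least 2000 UMIs per cell and joint clustering. These values rest on 1 Epcam+ library with 44 macrophage-like cells, in which Perp had 12 UMIs and Plk2 40 UMIs, and in which basophil and mast cell markers were raised; the part of those cells was not tested.

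2 of these members also had phase differences of opposite sign in the sorts, which was not tested. Cdkn1a was higher in G2/M than in G1 in both Epcam+ Icam+ libraries, with a log2 ratio of -0.27 in the Epcam+ library, where the counting intervals of both phases overlapped. Mdm2 was lower in S than in G1 in both Epcam+ Icam+ libraries, with a log2 ratio of 0.010 in the Epcam+ library, and the intervals overlapped there and in the first Epcam+ Icam+ library.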

How the results depend on the processing

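Of 846 member values under the alternatives, 693 stayed the same, 99 lost the threshold, 11 gained it, 26 moved and 17 changed sign. Tested values stayed the same if they kept their direction and their side of the threshold. Settings that left no test have no such side. There, values of the same sign stayed the same within the SE of the main fit and moved beyond it. The count of members called between airway-like and tip-like cells (7) was 4 in G1 cells, 1 with no replicate block and 3 to 8 with a library left out (3 without Epcam+ Icam+ replicate 2), and between alveolar type 1-like and tip-like cells (8) it was 2 in G1 cells and 4 with no replicate block. For S and for G2/M against G1 (8 each) it was 0 with no replicate block and 0 in tip-like cells only, and 6 to 8 and 5 to 8 with a library left out. For the sort in macrophage-like cells (4) it was 1 with DESeq2, 2 with RLE size factors, 2 with at least 2000 UMIs per cell and 2 at resolution 2, and for the difference of the sort differences (5) it was 3 with DESeq2, 2 with at least 2000 UMIs and 3 with joint clustering. The split by Cdkn1a called 1 member at 6000 UMIs in place of 0, with the share of all genes called at 6000 UMIs not given here. The cause of each change was not tested.

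4 of the 17 values that changed sign had been called. Mdm2 between airway-like and tip-like cells was -0.050 with at least 2000 UMIs, -0.073 with joint clustering, -0.012 with no filter, -0.10 at resolution 2 and -0.067 to 0.15 with a library left out. Ccng1 between alveolar type 1-like and tip-like cells was -0.26 in G1 cells, -0.091 with joint clustering, -0.033 at resolution 2 and -0.13 to 0.21 with a library left out. With a library left out, Mdm2 in S ranged over -0.17 to 0.015 and Ccng1 in G2/M over -0.20 to 0.035. In tip-like cells only, Phlda3 was -0.10 in S, and Phlda3, Cdkn1a and Aen were -0.077, -0.11 and -0.042 in G2/M. Joint clustering gave 0.30 for Ccng1 and 0.18 for Aen in the sort comparison of macrophage-like cells.

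Counts over all genes moved more. With no replicate block, 4782 genes between airway-like and tip-like cells became 343, 5431 between alveolar type 1-like and tip-like cells 3424, 4721 in S 319 and 5615 in G2/M 319. DESeq2 called 1290 of the 4252 genes of the macrophage sort comparison, 312 of the 1792 of the difference and 19 of the 61 of the Cdkn1a split. Of the genes called for the difference, 23.4% were higher with TMM, 39.0% with RLE and 52.6% with DESeq2, and of those of the Cdkn1a split 77.0% with TMM and 88.2% with RLE. No paired analysis was possible for the sort comparisons because there is only 1 Epcam+ library. With mixed barcodes kept, no macrophage-like class was found in the Epcam+ library. Leaving out a library ends the test for the sort and alveolar type 1 comparisons, as tip-like cells alone do for the Cdkn1a split, which then have no residual degrees of freedom.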
